A study of Homo sapiens with 12 samples.

Results

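The PRL phosphatases PTP4A1, PTP4A2 and PTP4A3 and their binding partners CNNM2, CNNM3 and CNNM4 were followed by RNA-seq in prostate cancer cells treated with pentamidine. These 6 genes were taken by their symbols from a count table of 32077 genes, and all 6 were found in it. PC3 and DU145 cells, human lines grown from metastases of prostate cancer and known to grow without androgen, were cultured for 48 hours with pentamidine at 2.5 μmol/L or with its vehicle, sterile water. Each of the 4 groups held 3 samples, and the 12 samples were all from wild type cells plated at 1000000 cells per well. The labels do not say whether the samples of a group were separate cultures, so the p-values below measure the spread between these samples, which may be technical.

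PRL phosphatases are small enzymes that are anchored to membranes by a prenyl group, and they are known for promoting the growth and spread of tumours. They bind the CNNM proteins, membrane proteins that act in the transport of magnesium ions out of and into the cell, and this binding is known to change the magnesium content of cells. Pentamidine, an antiprotozoal drug, has been reported to inhibit PRL enzymes. The data here are transcript levels only and hold no measure of enzyme activity or magnesium. A change in the RNA of each cell and a change in the mix of cells within a culture cannot be told apart in them.

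The samples held 13514195 to 15131436 counts each. The epithelial keratin genes KRT8 and KRT18 were read in every sample, KRT8 at 16.1 to 21.4 CPM (counts scaled to a total of 1000000 per sample) in PC3 cells and 1814 to 2791 CPM in DU145 cells, and KRT18 at 144 to 208 CPM and 684 to 940 CPM. The epithelial marker EPCAM was at 0 to 2 counts per sample in both lines, and the epithelial adhesion gene CDH1 at 0 or 1 count in PC3 cells and 1 to 10 counts in DU145 cells, which goes against an epithelial label by these markers. The identity of the lines was not tested here. The study's methods state that short tandem repeat profiling had recently been used to authenticate them. The prostate gene KLK3 had at most 2 counts per sample, PTPRC and PECAM1, which mark blood and endothelial cells, reached 1 and 10 counts, and COL1A1, a fibroblast gene, reached 2.98 CPM. The mitochondrial share of counts was 3.79% to 3.91% in vehicle-treated and 2.66% to 2.76% in pentamidine-treated PC3 cells, and 4.41% to 4.66% and 1.97% to 2.07% in DU145 cells. The part of these differences between groups and lines in the results below was not tested, apart from one scaling without mitochondrial genes.

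On GRCh38, PTP4A1 lies at chr6:63521748-63583587, PTP4A2 at chr1:31906421-31944856 and CNNM2 at chr10:102918293-103090221. CNNM4 (chr2:96760902-96811891) and CNNM3 (chr2:96816245-96833911) are neighbours on the same strand, with 4353 bases between them. Overlapping genes limit how the counts can be read. CNNM2 shares 1892 exon bases with NT5C2 on the opposite strand, which had 300 to 965 counts per sample, and CNNM3 shares 318 exon bases with ANKRD23, which had 3 to 13 counts. PTP4A1 shares 4170 exon bases with AL135905.2 on the same strand, which was not analysed here. As no source used here states the strand setting of the counting, CNNM2 counts in particular may include reads of NT5C2. Of the other genes with these name stems, CNNM1 had 0 or 1 count per sample, the pseudogenes PTP4A2P1 and PTP4A2P2 had at most 6 and 3, and CNNM3-DT, which is transcribed away from CNNM3, had 2 to 10.

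Upstream sequences of 3 genes are shown because EGR1, a transcription factor reported to drive PTP4A1, was itself lower after pentamidine, and because the neighbours CNNM3 and CNNM4 changed in opposite directions in PC3 cells. Each is the 250 bases before the first RefSeq start listed for the gene (GRCh38.p14, plus strand), at chr6:63572230-63572479 for PTP4A1, chr2:96816018-96816267 for CNNM3 and chr2:96760652-96760901 for CNNM4. Capitals mark the EGR1 motif GCGNGGGCG, searched on both strands.
PTP4A1: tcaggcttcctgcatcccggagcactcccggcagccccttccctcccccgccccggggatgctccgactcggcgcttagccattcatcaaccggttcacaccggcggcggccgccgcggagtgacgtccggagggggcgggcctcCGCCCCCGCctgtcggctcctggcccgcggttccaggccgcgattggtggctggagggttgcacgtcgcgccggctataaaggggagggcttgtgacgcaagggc
CNNM3: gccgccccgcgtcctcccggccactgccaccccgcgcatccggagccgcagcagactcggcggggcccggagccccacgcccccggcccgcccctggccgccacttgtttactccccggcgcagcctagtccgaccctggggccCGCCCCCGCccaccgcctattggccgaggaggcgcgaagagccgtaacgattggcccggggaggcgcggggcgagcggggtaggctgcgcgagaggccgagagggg
CNNM4: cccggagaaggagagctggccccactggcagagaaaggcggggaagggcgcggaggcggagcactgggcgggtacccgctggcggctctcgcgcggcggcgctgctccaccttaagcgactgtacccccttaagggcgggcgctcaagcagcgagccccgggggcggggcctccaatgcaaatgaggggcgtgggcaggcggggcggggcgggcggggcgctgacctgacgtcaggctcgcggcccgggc
The motif was found 1 time each in the PTP4A1 and CNNM3 windows and was not matched in the CNNM4 window. It was matched in none of the other 6 windows of PTP4A1, PTP4A2 and CNNM2, and in 8.39% of all 34943 RefSeq windows of this length. Among the genes followed here, PTP4A3 was left out of this search. GC made up 72.4%, 78.4% and 75.2% of the PTP4A1, CNNM3 and CNNM4 windows, against a median of 58% over all windows. The share over all windows was not matched for GC. A match describes the letters and is no evidence of binding, and a role of EGR1 in the changes of these genes was not tested.

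Compared per length, PTP4A1 and PTP4A2 were abundant, CNNM3 and CNNM4 were near the middle of all genes, and CNNM2 and PTP4A3 were low. CPM were scaled by TMM factors (the trimmed mean of M values, which sets libraries to a common level) and divided by the length of annotated exon in kilobases. In vehicle-treated PC3 cells, PTP4A2 was at 37.9 ± 1.05 CPM per kb (SD, n = 3) and PTP4A1 at 33.0 ± 2.48, and 9.02% and 10.7% of the 13612 genes with at least 30 counts in the group were higher. CNNM3 followed at 8.72 ± 0.744 CPM per kb, CNNM4 at 6.26 ± 0.281 and CNNM2 at 1.90 ± 0.196, while PTP4A3 was near 0 at 2 counts over the 3 samples. In vehicle-treated DU145 cells the order of the levels was PTP4A2 (35.6 ± 0.802 CPM per kb), PTP4A1 (25.8 ± 0.509), CNNM4 (6.05 ± 0.150), CNNM3 (5.58 ± 0.259), CNNM2 (1.30 ± 0.0219) and PTP4A3 (0.674 ± 0.0905). The means plus or minus 1 SD of neighbouring genes in this order did not overlap in either line. After pentamidine, CNNM3 (7.30 ± 0.172 CPM per kb) and CNNM4 (7.26 ± 0.185) in PC3 cells did not differ beyond their spread by the length of all exons. With the longest transcript they were at 9.35 and 7.73 CPM per kb in that group. The order of CNNM3 and CNNM4 in vehicle-treated DU145 cells turned with the length used, as the longest transcript put CNNM3 at 7.14 and CNNM4 at 6.43 CPM per kb. The order of PTP4A1 and PTP4A2 was the same in all 4 groups, with PTP4A2 at 1.15 times PTP4A1 per kb in vehicle-treated and 1.23 times in pentamidine-treated PC3 cells, and at 1.38 and 1.31 times in DU145 cells. With the length of the longest transcript in place of all exons, these ratios became 1.76, 1.88, 2.12 and 2.01. PTP4A1 shares 4170 of its 5281 exon bases with AL135905.2, and how shared reads were counted is not known, which limits its level and these ratios.

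**Figure D1:**
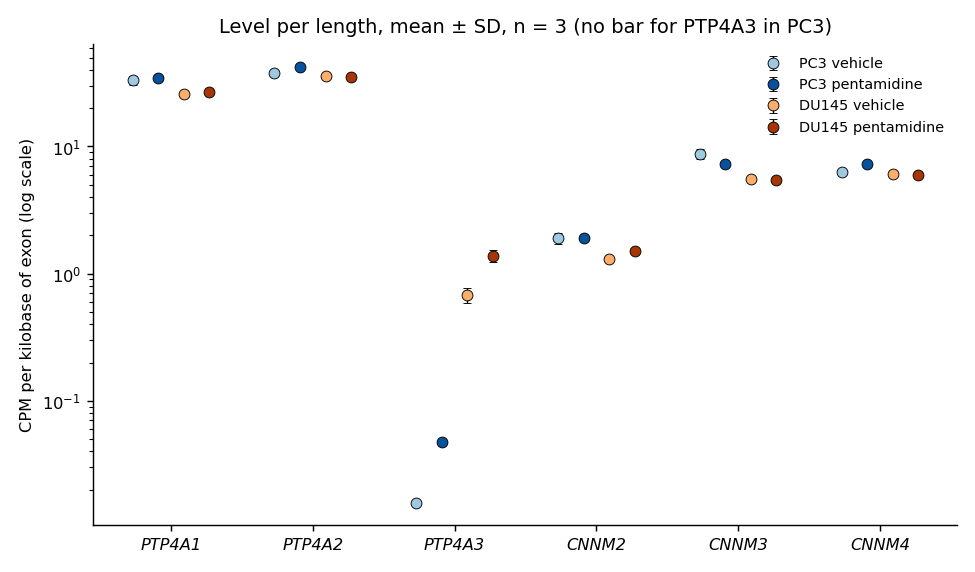
Levels of the 6 genes in CPM per kilobase of exon on a log scale, as the mean and SD of 3 samples in each of the 4 groups (no SD is drawn for PTP4A3 in PC3 cells, where the counts were 0 to 4). PTP4A1 and PTP4A2 sit highest in every group, and PTP4A3 falls from 0.674 CPM per kb in vehicle-treated DU145 cells to near 0 in PC3 cells.

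The lines differed most in PTP4A3, the PRL best known for its link to metastasis, which lies on chromosome 8 from 141391993 to 141432454. It had 26, 24 and 32 counts in the vehicle-treated DU145 samples and 2, 0 and 0 counts in the vehicle-treated PC3 samples. Every DU145 sample was above every PC3 sample. Over the 3 samples of each group, 82 against 2 counts gave a ratio of 40.9 of DU145 to PC3 per total count, with a 95% interval of 11.0 to 343 that covers counting error only (exact conditional binomial). After pentamidine the counts were 172 against 6 and the ratio 29.3 (interval 13.2 to 80.9).

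Of the 5 genes read in both lines, 3 differed between the vehicle-treated lines at an adjusted p under 0.05 (Benjamini-Hochberg over all genes tested, from the quasi-likelihood test of edgeR, as for every adjusted p below), while 65.3% of all genes tested did so. PTP4A1 was at 186, 177 and 160 CPM in PC3 cells and 137, 138 and 133 CPM in DU145 cells, a log2 difference of 0.34 (SE 0.055, adjusted p = 4.77e-05). CNNM3 was 1.54-fold higher in PC3 cells (log2 difference 0.62, SE 0.081, adjusted p = 4.33e-06) and CNNM2 was 1.44-fold higher (0.53, SE 0.086, adjusted p = 4.46e-05). For PTP4A3, which passed the filter on low counts through the DU145 samples alone, the counts above are given in place of a test. For PTP4A2 the log2 difference was 0.063 with a 95% interval from -0.035 to 0.16 (adjusted p = 0.245), and for CNNM4 it was 0.026 with an interval from -0.13 to 0.18 (adjusted p = 0.776). For PTP4A2 the scaling decided the call: by library size alone the log2 difference was 0.14 (adjusted p = 0.0117), and by limma on log2(CPM + 1) it was 0.14 (adjusted p = 0.0108). The limma fit used the same scaling by library size.

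**Figure D2:**
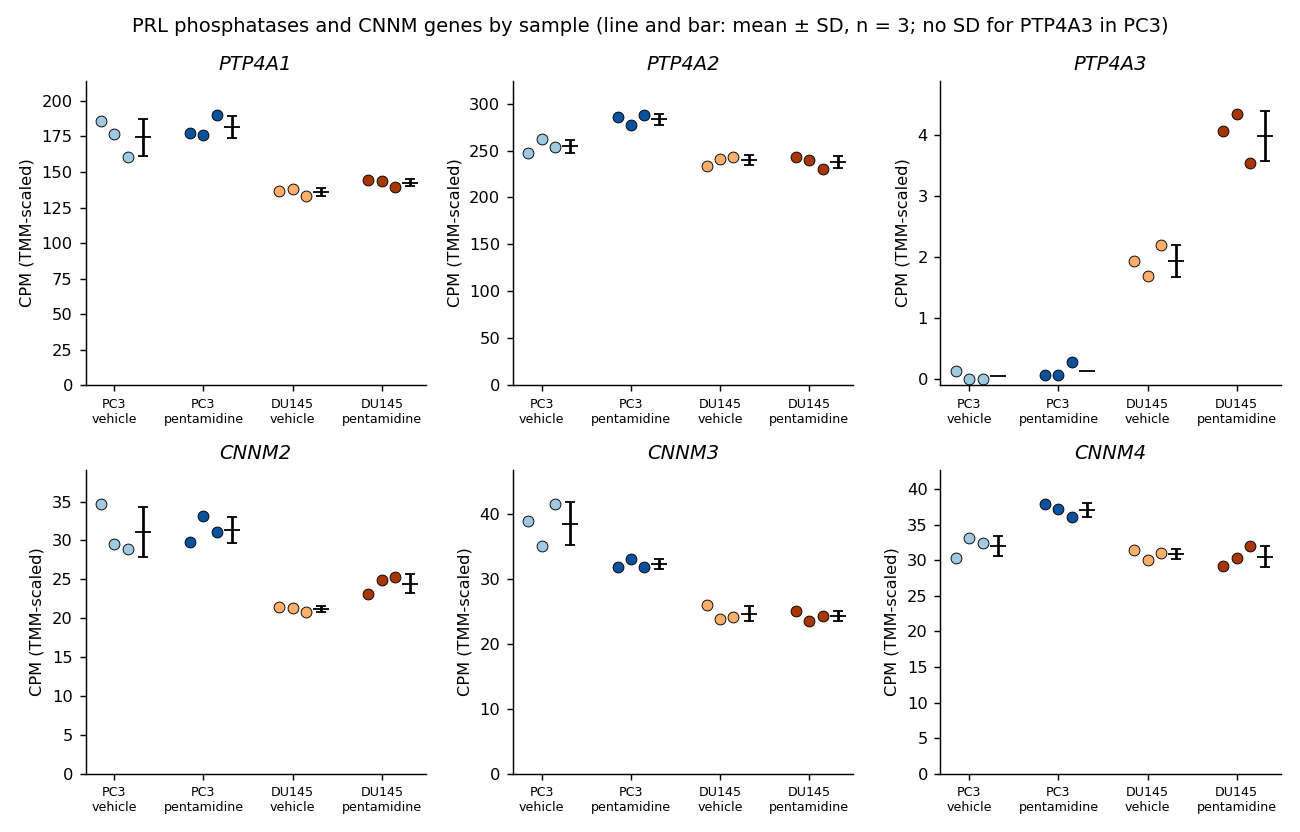
TMM-scaled CPM of each gene in the 12 samples by group, with the mean and SD of 3 samples beside the points (no SD for PTP4A3 in PC3 cells). The pentamidine-treated samples lie above the vehicle-treated ones for PTP4A2 and CNNM4 and below them for CNNM3 in PC3 cells, and above them for PTP4A1, PTP4A3 and CNNM2 in DU145 cells.

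Pentamidine raised PTP4A3 about 2-fold in DU145 cells. The 3 vehicle-treated samples were at 1.94, 1.68 and 2.20 CPM and the 3 pentamidine-treated samples at 4.07, 4.34 and 3.54 CPM, which is 57, 64 and 51 counts after pentamidine. The groups did not overlap. The log2 fold change was 1.04 (SE 0.23, 95% interval 0.58 to 1.50, 2.06-fold, adjusted p = 0.000247), and 1.85% of all genes tested changed more in either direction. Under every alternative run, the log2 fold change of PTP4A3 in DU145 cells lay between 0.80 and 1.14 and its adjusted p between 7.36e-05 and 0.00454. Its level stayed low: after pentamidine it was at 1.38 ± 0.141 CPM per kb, with 75.9% of 14277 genes higher.

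In PC3 cells, PTP4A3 had 2, 0 and 0 counts with vehicle and 1, 1 and 4 counts with pentamidine and was left untested, as these counts were under the filter's minimum. A change in PC3 cells was not detectable at this depth: the 6 counts against 2 gave a ratio of 2.98 with an interval of 0.532 to 30.2 for counting error. Without the filter its adjusted p was 0.575.

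PTP4A2, the most abundant of the PRL genes, rose slightly in PC3 cells and not detectably in DU145 cells. In PC3 cells it was at 248, 262 and 254 CPM with vehicle and at 285, 277 and 288 CPM with pentamidine. The lowest pentamidine-treated sample was above the highest vehicle-treated one. The log2 fold change was 0.16 (SE 0.048, 1.12-fold, adjusted p = 0.0126). In DU145 cells the samples overlapped, at 233, 241 and 244 CPM with vehicle and 243, 240 and 231 CPM with pentamidine, and the log2 fold change was -0.0058 with a 95% interval from -0.075 to 0.064 (adjusted p = 0.920). The difference between the responses of the lines was 0.17 on the log2 scale (SE 0.057, 95% interval 0.049 to 0.28, adjusted p = 0.0387). This call was lost in 13 of 22 alternatives, among them scaling by library size alone (adjusted p = 0.246), no filter on low counts (0.0608), limma on log2(CPM + 1) (0.220) and 7 of the fits with 1 sample left out (0.0572 to 0.115). The PC3 call was lost without pentamidine replicate 1 (adjusted p = 0.0570) or pentamidine replicate 3 (adjusted p = 0.0538).

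PTP4A1, which is also known as an immediate early gene, did not pass the test in either line. In PC3 cells the 3 vehicle-treated samples, at 186, 177 and 160 CPM, overlapped the pentamidine-treated ones at 178, 176 and 190 CPM, and the log2 fold change was 0.060 (SE 0.057, adjusted p = 0.424). In DU145 cells it was at 137, 138 and 133 CPM with vehicle and at 144, 144 and 139 CPM with pentamidine. These groups did not overlap, but the log2 fold change of 0.071 (SE 0.039) had a 95% interval from -0.0064 to 0.15 and an adjusted p of 0.154. It passed the test when samples were scaled by library size alone (0.12, adjusted p = 0.0115) and by limma on log2(CPM + 1) (0.12, adjusted p = 0.0122). The limma fit also scaled by library size alone, so it is no separate check on the scaling.

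CNNM3 and CNNM4, the neighbours on chromosome 2, changed in opposite directions in PC3 cells. CNNM3, at 38.9, 35.1 and 41.6 CPM with vehicle, was at 31.8, 33.1 and 31.8 CPM with pentamidine. All pentamidine-treated samples were below all vehicle-treated ones, and CNNM3 fell by 0.25 on the log2 scale (SE 0.077, adjusted p = 0.0142). CNNM4, a basolateral magnesium transporter, was at 30.3, 33.1 and 32.5 CPM with vehicle and at 38.0, 37.2 and 36.1 CPM with pentamidine. It rose by 0.22 on the log2 scale (SE 0.072, 1.16-fold, adjusted p = 0.0211), with no overlap of the groups. Within the sum of the CNNM levels per kb, CNNM3 made up 51.6% ± 2.41 (SD, n = 3) in the vehicle-treated and 44.3% ± 0.462 in the pentamidine-treated samples, and CNNM4 made up 37.1% ± 2.47 and 44.1% ± 0.968. With the longest transcript these shares were 56.4% and 49.1% for CNNM3, and 33.7% and 40.5% for CNNM4. The CNNM3 call was lost without vehicle replicate 3 (adjusted p = 0.0655), pentamidine replicate 1 (adjusted p = 0.0553) or pentamidine replicate 3 (adjusted p = 0.0516). The CNNM4 call was lost without vehicle replicate 1 (adjusted p = 0.0764), pentamidine replicate 1 (adjusted p = 0.0830) or pentamidine replicate 2 (adjusted p = 0.0636), and in DESeq2 (adjusted p = 0.0565).

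In DU145 cells neither gene passed the test. CNNM3 was at 25.9, 23.8 and 24.1 CPM with vehicle and 25.0, 23.5 and 24.4 CPM with pentamidine, a log2 fold change of -0.015 (SE 0.078, adjusted p = 0.909). CNNM4 was at 31.5, 30.0 and 31.1 CPM and at 29.1, 30.3 and 32.1 CPM, a log2 fold change of -0.012 (SE 0.071, adjusted p = 0.921). The difference between the lines did not pass the test for either gene: it was -0.24 for CNNM3 (95% interval -0.45 to -0.017, adjusted p = 0.126) and 0.23 for CNNM4 (0.033 to 0.43, adjusted p = 0.0941). By library size alone the difference for CNNM3 was -0.30 (adjusted p = 0.0375).

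CNNM2, the magnesium transporter mutated in inherited loss of magnesium, rose in DU145 cells in the fit of that line. It was at 21.5, 21.3 and 20.8 CPM with vehicle and at 23.1, 24.9 and 25.3 CPM with pentamidine, without overlap. The log2 fold change was 0.21 (SE 0.081, 1.16-fold, adjusted p = 0.0354). The call was lost in DESeq2 (adjusted p = 0.108), without the filter on low counts (0.0913), in a fit of all 12 samples (0.0701), and without vehicle replicate 1 (0.0620), 2 (0.0676) or 3 (0.0985) or pentamidine replicate 2 (0.108) or 3 (0.131). In PC3 cells it was at 34.7, 29.5 and 28.9 CPM with vehicle and at 29.8, 33.2 and 31.0 CPM with pentamidine, with a log2 fold change of 0.017 (SE 0.083, adjusted p = 0.887). These values carry the limit of the shared bases with NT5C2.

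**Figure D3:**
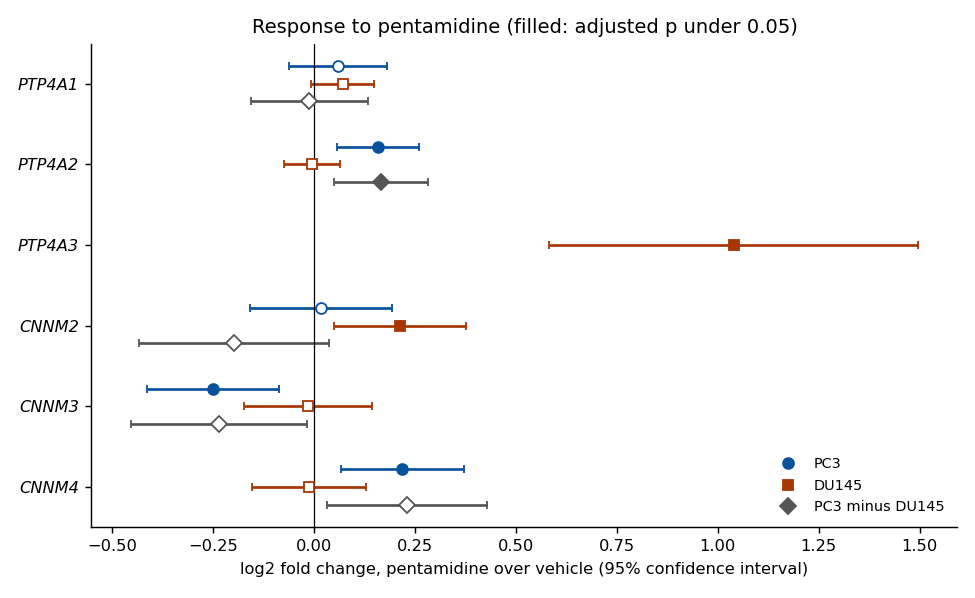
Log2 fold change of pentamidine over vehicle for each gene in PC3 cells, in DU145 cells and as the difference of the lines, with 95% confidence intervals and filled symbols at an adjusted p under 0.05. PTP4A3 in DU145 cells, at 1.04, lies far from the other values, which run from -0.25 to 0.23, and PTP4A3 is not drawn where PC3 cells enter.

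Counted together, 3 of the 5 genes tested in PC3 cells passed the threshold on adjusted p, 2 higher (21.7% of all genes tested) and 1 lower (21.7%). None was also over 1 in absolute log2 fold change (4.75% of all genes). The PC3 groups did not overlap for 3 of the 6 genes, as for 52.1% of all genes tested. In DU145 cells 2 of 6 passed, both higher (17.2% of all genes) and none lower (16.8%; none also at an unadjusted p under 0.05 and in DESeq2), and 1 was also over 1 (2.03%). The DU145 groups did not overlap for 3 of the 6, against 44% of all genes. Over the genes tested, the median log2 fold change was 0.060 for PC3 cells and 0.033 for DU145 cells, beside 0.0046 and 0.0085 over all genes. In a fit over both lines that held cell line as a term, PTP4A3 alone passed, where 37.9% of all genes did. It entered that fit through the DU145 samples, as PC3 cells held 8 counts in all, so the call repeats the DU145 result, and it was not tested where at least 10 counts were required in every sample. For the difference between lines, PTP4A2 alone passed, where 20.4% of all genes did.

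The genes whose pattern was most like that of each member were found by Pearson's r over the 12 samples, with log2 CPM centred within each line, among 13457 genes with a mean of at least 1 CPM. These r values are a description, as the points share treatment and library. For PTP4A1 they were LRRC75A (r = 0.91), FBXO4 (0.91) and NFYB (0.89). For PTP4A2 they were CCNL1 (0.96), COPB1 (0.95) and BCL10 (0.94), and for PTP4A3 they were GTF2IRD2B (0.96), PRRT3 (0.94) and CELSR1 (0.94). PTP4A3 reached the mean of 1 CPM through the DU145 samples alone. Its PC3 samples held 0 to 4 counts each, so its r values describe no pattern in PC3 cells. The CNNM2 pattern was nearest to ZNF318 (0.92), HMGN1 (0.91) and LHPP (0.91), that of CNNM3 to SPG7 (0.96), AKT2 (0.95) and ZNF324B (0.95), and that of CNNM4 to STK38L (0.94), NBEA (0.94) and ITGB2 (0.94).

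Around the CNNM proteins, 17 other genes of magnesium transport were listed, of which 16 could be tested in each line. In PC3 cells 6 rose and 4 fell, with a median log2 fold change of 0.030, where 21.7% of all genes rose and 21.7% fell. In DU145 cells 3 rose and 3 fell, with a median of -0.089, where 17.2% of all genes rose and 16.8% fell. TRPM6, a magnesium channel that is fused to a kinase, was at 0.677 to 1.69 CPM in vehicle-treated and 2.77 to 3.51 CPM in pentamidine-treated PC3 cells, and rose by 1.44 (SE 0.30, adjusted p = 0.000885). In DU145 cells TRPM6 was at 1.82 to 1.94 CPM with vehicle and 1.21 to 2.15 CPM with pentamidine (log2 fold change -0.20, adjusted p = 0.646), and the difference of the lines was 1.64 (adjusted p = 0.00433). NIPAL2 and NIPAL4, relatives of the NIPA magnesium transporters, rose in PC3 cells by 0.93 and 0.92 (adjusted p = 0.0395 and 0.0364) from at most 1.03 CPM, and NIPAL2 rose by 0.51 in DU145 cells (adjusted p = 0.0221). MAGT1 fell by 0.24 in PC3 cells and by 0.34 in DU145 cells (adjusted p = 0.00369 and 1.38e-08), and ARL15, a small GTPase that binds CNNM proteins, fell by 0.33 and 0.32 (adjusted p = 0.0167 and 0.00909). MRS2, the channel of mitochondria, was chosen after its values were seen: it fell by 0.52 in PC3 cells (adjusted p = 2.04e-06), and its log2 fold change in DU145 cells was -0.12 (adjusted p = 0.146). NIPAL3, chosen likewise, rose by 0.39 and 0.31 (adjusted p = 0.000525 and 0.0124), and NIPA2 and SLC41A3 rose in PC3 cells by 0.33 and 0.34 (adjusted p = 0.000215 and 0.00218). SLC41A1, also chosen likewise, fell by 0.18 and 0.17 (adjusted p = 0.0391 and 0.00667; the PC3 value was 0.0787 without the filter on low counts).

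The NIPAL2 and NIPAL4 calls rested on 9 to 35 counts per PC3 sample and were lost in DESeq2 (adjusted p = 0.122 and 0.0953), and that of NIPAL2 in DU145 cells likewise (0.0757). NIPAL2 had 9 to 12 counts in the vehicle-treated PC3 samples, and its PC3 call was also lost without the filter on low counts (0.0679). Without PC3 vehicle replicate 1 or 2 or pentamidine replicate 1 or 3, NIPAL2 had an adjusted p of 0.116, 0.0988, 0.145 and 0.106. Without PC3 vehicle replicate 1, 2 or 3 or pentamidine replicate 3, NIPAL4 had 0.0723, 0.103, 0.0509 and 0.231. The NIPAL2 call in DU145 cells was lost without vehicle replicate 1 (0.0917) or 3 (0.0860) or pentamidine replicate 3 (0.191). The ARL15 call was lost in PC3 cells without vehicle replicate 2 (0.0715) or pentamidine replicate 1 (0.0538) or 2 (0.0975), and in DU145 cells without vehicle replicate 2 (0.0522) or pentamidine replicate 1 (0.0599).

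**Figure D4:**
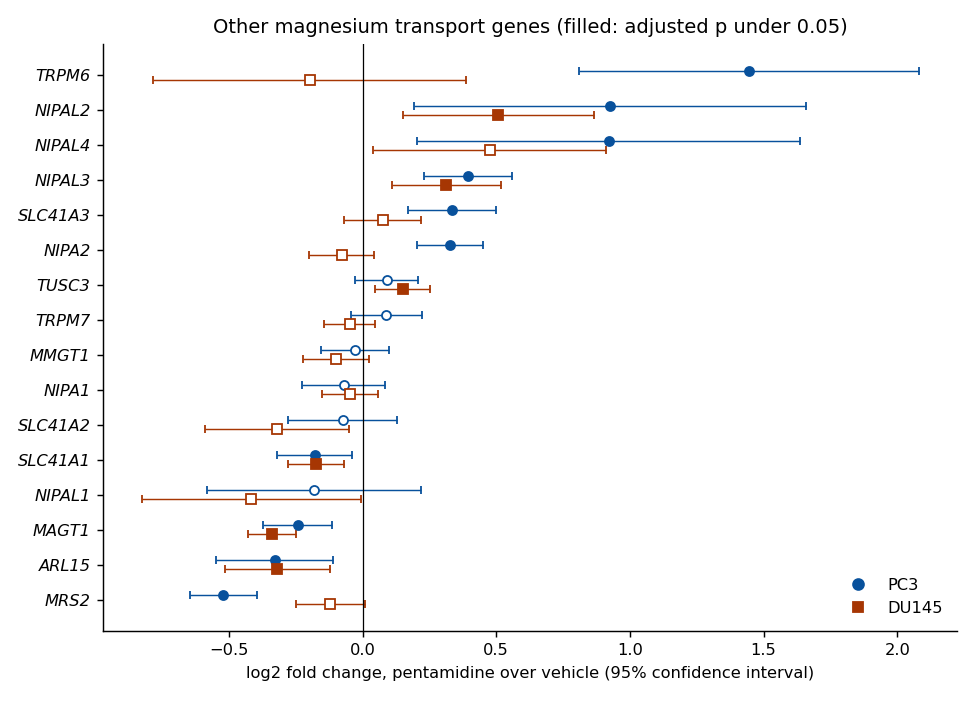
Log2 fold changes with 95% confidence intervals of the 16 other magnesium transport genes tested in PC3 and DU145 cells, filled at an adjusted p under 0.05. TRPM6 in PC3 cells has the highest value, 1.44, while MAGT1, ARL15 and SLC41A1 lie below 0 in both lines.

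Among related protein and lipid phosphatases, 6 of 20 tested rose and 2 fell in PC3 cells, and 2 of 22 rose and 2 fell in DU145 cells. Over all genes, 21.7% rose and 21.7% fell in PC3 cells, and 17.2% and 16.8% in DU145 cells. This list had a median log2 fold change of 0.10 for PC3 cells and -0.047 for DU145 cells. DUSP5 and DUSP8, phosphatases that act on MAP kinases, rose in PC3 cells by 1.28 (SE 0.095, adjusted p = 9.84e-09) and 1.63 (SE 0.21, adjusted p = 6.14e-06). In DU145 cells their log2 fold changes were -0.085 (adjusted p = 0.480) and -0.47 (adjusted p = 0.286). DUSP1, named after its values were seen, rose by 0.60 in PC3 cells (adjusted p = 4.69e-07) and fell by 0.44 in DU145 cells (adjusted p = 0.0002). The genes that changed in DU145 cells, named likewise, were EPM2A and DUSP6, which rose, and DUSP1 and DUSP7, which fell.

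Of the genes reported to act downstream of PRLs, 6 of 15 tested rose in PC3 cells and the rest did not pass, and 5 of 16 rose and 3 fell in DU145 cells, with medians of 0.11 and 0.051. The shares of all genes that rose and fell were again 21.7% and 21.7% in PC3 cells and 17.2% and 16.8% in DU145 cells. The kinase gene SRC was at 15.4 to 17.5 CPM in vehicle-treated and 37.6 to 46.5 CPM in pentamidine-treated PC3 cells, and rose by 1.34 (SE 0.094, adjusted p = 4.89e-09). In DU145 cells SRC was at 67.4 to 70.1 CPM and 71.4 to 76.9 CPM, a log2 fold change of 0.10 (adjusted p = 0.109). VEGFA, which encodes an angiogenic growth factor, rose in both lines, by 1.53 in PC3 cells (SE 0.054, adjusted p = 3.46e-13) and by 1.14 in DU145 cells (SE 0.055, adjusted p = 4.34e-24). For SRC in DU145 cells the scaling decided the call, with an adjusted p of 0.0136 by library size alone and 0.0137 by limma on log2(CPM + 1). The limma fit used the same scaling by library size.

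The list of reported regulators of PRL genes as analysed here held 7 genes, of which 5 were tested in PC3 cells and 4 in DU145 cells. Those that changed are named here after their values were seen. EGR1, an immediate early transcription factor, was at 55.4 to 70.1 CPM with vehicle and 48.8 to 50.8 CPM with pentamidine in PC3 cells, and fell by 0.29 (adjusted p = 0.00629). In DU145 cells it was at 12.9 to 16.8 CPM and 9.36 to 10.1 CPM, and fell by 0.60 (adjusted p = 2.79e-05). TGFB1 fell by 0.25 and 0.14 (adjusted p = 0.00268 and 0.00234, the second 0.0516 by library size alone and 0.0619 without DU145 vehicle replicate 3). STAT3 rose by 0.18 in PC3 cells (adjusted p = 0.00895) and fell by 0.18 in DU145 cells (adjusted p = 0.00252). At an adjusted p under 0.05, 1 gene of this list rose and 2 fell in PC3 cells, and 0 rose and 3 fell in DU145 cells. Over all genes, 21.7% rose and 21.7% fell in PC3 cells, and 17.2% and 16.8% in DU145 cells. Over the 5 and 4 tested genes of this list the median log2 fold change was -0.25 for PC3 cells and -0.16 for DU145 cells. Medians of so few genes do not describe a shift of the list.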

How the data were processed

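RNA-seq of 12 samples was used: PC3 and DU145 cells, each with pentamidine at 2.5 μmol/L or vehicle, 3 per group, grouped by their labels. According to the submitters' processing notes and the study's methods, the authors aligned reads to GRCh38 with HISAT2 2.1.0 and tested genes with DESeq 1.18.1; the counting program and its strand setting are not given in the sources used here. The counts were deposited by the authors as whole reads per gene. A table named FPKM was deposited by the authors, but all of its values equal CPM (relative tolerance 1e-05) and are not divided by length. The log2 fold changes and p-values deposited by the authors from their own comparisons were not used. Of 33595 entries, 32077 genes remained after repeated entries were kept once; 24 gene names had been turned into dates, and 44 lines of overflowing annotation text were dropped.

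Counts were tested with edgeR 4.0.16 (R 4.3.3): quasi-likelihood test, TMM factors, filterByExpr (minimum count 10) and adjustment by Benjamini-Hochberg over all genes tested. Each line was fitted with its own 6 samples, the vehicle groups together, and all 12 samples for the effect over both lines and for the difference of the lines. The fits were tested on simulated data. Exon lengths are those of GENCODE release 29, and promoters those of RefSeq. Alternatives were DESeq2 1.42.0, other scalings and filters, limma 3.58.1 on log2(CPM + 1) and log2(CPM + 0.1), a replicate block, a fit of all 12 samples, a stricter threshold of 0.01 and leaving out each sample. The limma fits used CPM by library size alone, without TMM factors. Python 3.11.15 with SciPy 1.17.1 gave intervals and correlations.

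The genes named are the 6 members, other genes whose names start with PTP4A or CNNM, list genes with an adjusted p under 0.05 and an absolute log2 fold change over 1 in a line, the 3 called magnesium genes with the largest change per line, and the 3 genes most like each member. Other list genes, such as MRS2, SLC41A1, NIPAL3, DUSP1 and the regulators, were named after their values were seen, as said beside them. The members and lists were chosen with earlier results of these data known. TPTE2 and a few other genes of the lists are not reported here, and the counts of the lists leave them out. The smallest and largest total counts were 13514195 and 15131436, and the spread between the samples of a group also limits the precision. Pairs of samples in a group were compared by the mean chi-square per gene, which rises with spread beyond counting error. It was 3.64 to 7.30 among the vehicle-treated PC3 samples and at most 3.13 in the other groups.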

Additional observations from a re-analysis of the deposited data

Results flagged for a closer look

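The response of PTP4A2 to pentamidine differed between the lines by 0.17 on the log2 scale, PC3 minus DU145 (adjusted p = 0.0387 by the interaction term of edgeR's quasi-likelihood test). In PC3 cells the pentamidine-treated samples were all above the vehicle-treated samples, and in DU145 cells the groups overlapped. The difference no longer passed by library size alone (0.097, adjusted p = 0.246), without the filter on low counts (adjusted p = 0.0608), by limma on log2(CPM + 1) or log2(CPM + 0.1) (adjusted p = 0.220 in both), or without any of PC3 vehicle replicate 1 (0.0572), PC3 pentamidine replicate 1 (0.0778) or 3 (0.0871), DU145 vehicle replicate 2 (0.0671) or 3 (0.0834), or DU145 pentamidine replicate 2 (0.0683) or 3 (0.115).

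By the same term, 8 of the named genes of the lists also passed, where 20.4% of all genes tested did so. These genes were named for a large change in a line or after their values were seen, so the count does not describe the lists. Their log2 differences are given as PC3 minus DU145. TRPM6 differed by 1.64, DUSP5 by 1.37 and DUSP8 by 2.10. SRC differed by 1.24, DUSP1 by 1.04 and VEGFA by 0.39. MRS2 differed by -0.40 and STAT3 by 0.36.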

How the results depend on the processing

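The number of the 6 genes that passed was 3 in PC3 cells, 2 in DU145 cells, 1 over both lines (PTP4A3, which repeats the DU145 result) and 1 for the difference of the lines. Between the vehicle-treated lines it was 3, with PTP4A3 left out because its counts stand in place of a test. With 1 sample left out it ranged from 0 to 3 in PC3 cells (0 without pentamidine replicate 1, 1 without pentamidine replicate 3), from 1 to 2 in DU145 cells, from 1 to 2 over both lines (2 without PC3 vehicle replicate 1 or DU145 vehicle replicate 2) and from 0 to 1 for the difference. At an adjusted p under 0.01 it was 0 in PC3 cells, 1 in DU145 cells and 0 for the difference. In DU145 cells it was 1 with DESeq2, with no filter on low counts and in one fit of all 12 samples. Over both lines it was 0 with at least 10 counts in every sample, where PTP4A3 was not tested, and 2 by limma on log2(CPM + 1) or log2(CPM + 0.1). For the difference it was 0 with no filter and 2 by limma on log2(CPM + 1). These 2 were CNNM3 (adjusted p = 0.0356) and PTP4A3, while PTP4A2 did not pass there (adjusted p = 0.220). PTP4A3 had 0 to 4 counts per PC3 sample, so its entry in that count is no test of a difference in response.

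With the replicate number as a block, the counts were 3 in PC3 cells, 2 in DU145 cells and 0 for the difference, where PTP4A2 had an adjusted p of 0.0824; the PC3 calls of NIPAL2 and NIPAL4 were lost as well (0.0682 and 0.0503). Deviations of samples with the same number had correlations from -0.073 to 0.026 within the lines, and the best match was the own number for 1 of 6 samples. Between the vehicle groups of the 2 lines these correlations were 0.039, 0.020 and -0.013. With 3 samples per group, such values cannot decide whether samples of the same number share more than that number.

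Of the values that changed direction, none had passed in the fits reported. That of PTP4A3, given last, fell under the threshold in the opposite direction in one limma fit, but its PC3 counts were too low for a test. By library size alone they were -0.0019 for CNNM2 in PC3 cells, and 0.044 for PTP4A2, 0.035 for CNNM3 and 0.038 for CNNM4 in DU145 cells. By limma on log2(CPM + 1) and log2(CPM + 0.1), PTP4A2 was at 0.044 and 0.044, CNNM3 at 0.033 and 0.035 and CNNM4 at 0.035 and 0.036 in DU145 cells. With 1 sample left out, the log2 fold change ranged from -0.030 to 0.099 for CNNM2 in PC3 cells, and in DU145 cells from -0.031 to 0.011 for PTP4A2, from -0.039 to 0.016 for CNNM3, from -0.053 to 0.017 for CNNM4 and from -0.22 to 0.0042 for DUSP5. The difference of the lines for PTP4A1 became 0.0045 with DESeq2, 0.0044 with RLE and 0.0014 with no filter. That for PTP4A3 became -0.68 and -0.33 by limma on log2(CPM + 1) and log2(CPM + 0.1). PC3 cells held 8 counts of PTP4A3 in all, so neither value tests a difference in response. With 1 sample left out these differences ranged from -0.062 to 0.042 for PTP4A1 and from -0.52 to 3.04 for PTP4A3.

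By library size alone the share of higher genes among all called rose from 50.6% to 66.6% in DU145 cells and fell from 49.7% to 33.2% for the difference. The ratio of PTP4A2 to PTP4A1 per kb ranged from 1.10 to 1.20 in PC3 vehicle samples with 1 left out, and rose to 1.76, 1.88, 2.12 and 2.01 in the 4 groups with the longest transcript.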
